A study of Mus musculus with 20 samples.

Results

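The transcripts of 8 secreted metabolic regulators of the liver were followed in mice on a high-fat diet (HFD) that were exposed to polychlorinated biphenyls (PCBs). The genes were Ahsg, Fetub, Selenop, Angptl4, Angptl8, Inhbe, Gdf15 and Enho. They were chosen by name, and each symbol matched 1 Ensembl gene of the count table in the GENCODE M21 annotation. They are 8 of 21780 genes in the table, and all 8 were among the 15522 genes tested.

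Liver RNA was sequenced from 20 male C57Bl/6J mice, with 5 separate mice in each of 4 groups. All mice, controls included, were put on the HFD (42% of energy from fat) at 8 weeks of age, and 2 weeks later received 1 oral gavage. HFD control mice received corn oil. HFD + Aroclor mice received Aroclor 1260 at 20 mg/kg, a commercial mixture of mostly non-dioxin-like PCBs. HFD + PCB 126 mice received PCB 126 at 20 µg/kg, a dioxin-like congener that binds the aryl hydrocarbon receptor (AHR). HFD + Aroclor + PCB 126 mice, called the combined exposure here, received both at these doses. Livers were taken after a fast of about 6 h, 10 weeks after the gavage by the methods and 12 weeks by the sample labels. No group on another diet was analysed here, so the values do not bear on the diet itself.

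Hepatokines are proteins that hepatocytes release into the blood and that act on other tissues, much as adipokines do for fat. Some are abundant plasma proteins, such as fetuin-A, which inhibits the insulin receptor, and selenoprotein P, which carries selenium from liver to other organs. Others are signals of the nutritional state or of cell stress, such as the angiopoietin-like inhibitors of lipoprotein lipase and growth differentiation factor 15.

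With the combined exposure, Selenop was higher and Ahsg was lower than in HFD control, and these were the 2 members past the threshold (edgeR's quasi-likelihood test, Benjamini-Hochberg adjusted p under 0.05 over all tested genes). Selenop rose by 0.50 on the log2 scale, and Ahsg fell by 0.47. In the same comparison 32.8% of all tested genes passed. No member passed the test with Aroclor or PCB 126 alone, where 0% and 0.116% of all genes did. Neither call was kept when the trend of each library with the GC content of transcripts was removed (adjusted p = 0.455 for Selenop and 0.146 for Ahsg). Angptl8, Inhbe and Gdf15 varied more among mice of the same group than at least 96.3% of genes at 1 CPM or more. So did Enho, but at 2 to 28 counts per library its spread includes a large counting error. Angptl8 and Inhbe were high in the same mice.

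The total count per library was 21836506 to 36854887. Cyp1a1 and Cyp1a2, cytochrome P450 targets of AHR, checked the exposure. Cyp1a2 had a mean of 387 CPM (counts scaled to a fixed library total) in control mice, 385 with Aroclor, 1590 with PCB 126 and 775 with the combined exposure, with no overlap between HFD control and either group given PCB 126. Cyp1a1 had a mean of 0.612 CPM in HFD control and 78.6 in HFD + PCB 126 (4.09 to 314 over its mice), but of 1.32 in the combined exposure, whose mice overlapped the controls. Cyp2b10, a target of the constitutive androstane receptor, was at a mean of 3.54 CPM in HFD control, 5.38 in HFD + PCB 126, 14.0 in HFD + Aroclor and 11.7 in the combined exposure, and its mice overlapped in each comparison with HFD control. The hepatocyte markers fitted the labelled tissue: Alb, serum albumin, was at 52500 CPM or more in each library. Libraries differed in how a gene's level moved with its GC content: the slope was 0.085 to 0.42 log2 CPM per 10 points of GC in HFD control and -0.54 to -0.12 in the combined exposure, which did not overlap. It was -0.095 to 0.11 in HFD + Aroclor and -0.097 to 0.35 in HFD + PCB 126. The slope and the combined exposure cannot be told apart by group, and the combined change of each member from HFD control is given below with and without GC correction. In bulk liver, fewer cells of a type and less RNA per cell cannot be told apart.

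Levels were compared between genes per length, as FPKM, which is CPM divided by the exon length in kilobases. In HFD control, Ahsg ranked 17 of 15522 genes with a mean of 2994 FPKM, and Selenop ranked 24 with 2126 FPKM. Fetub, fetuin-B, ranked 199 with 252 FPKM. Angptl4 was at 49.7 FPKM, Inhbe at 21.3, Gdf15 at 11.6 and Angptl8 at 8.35, which all lay in the top 21.2% of tested genes. Enho, which encodes the peptide adropin, ranked 10681 with 0.404 FPKM. Thus 7 members were well expressed in liver, as the name hepatokine requires, while Enho had 2 to 28 counts per library and its values carry a large counting error.

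**Figure D1:**
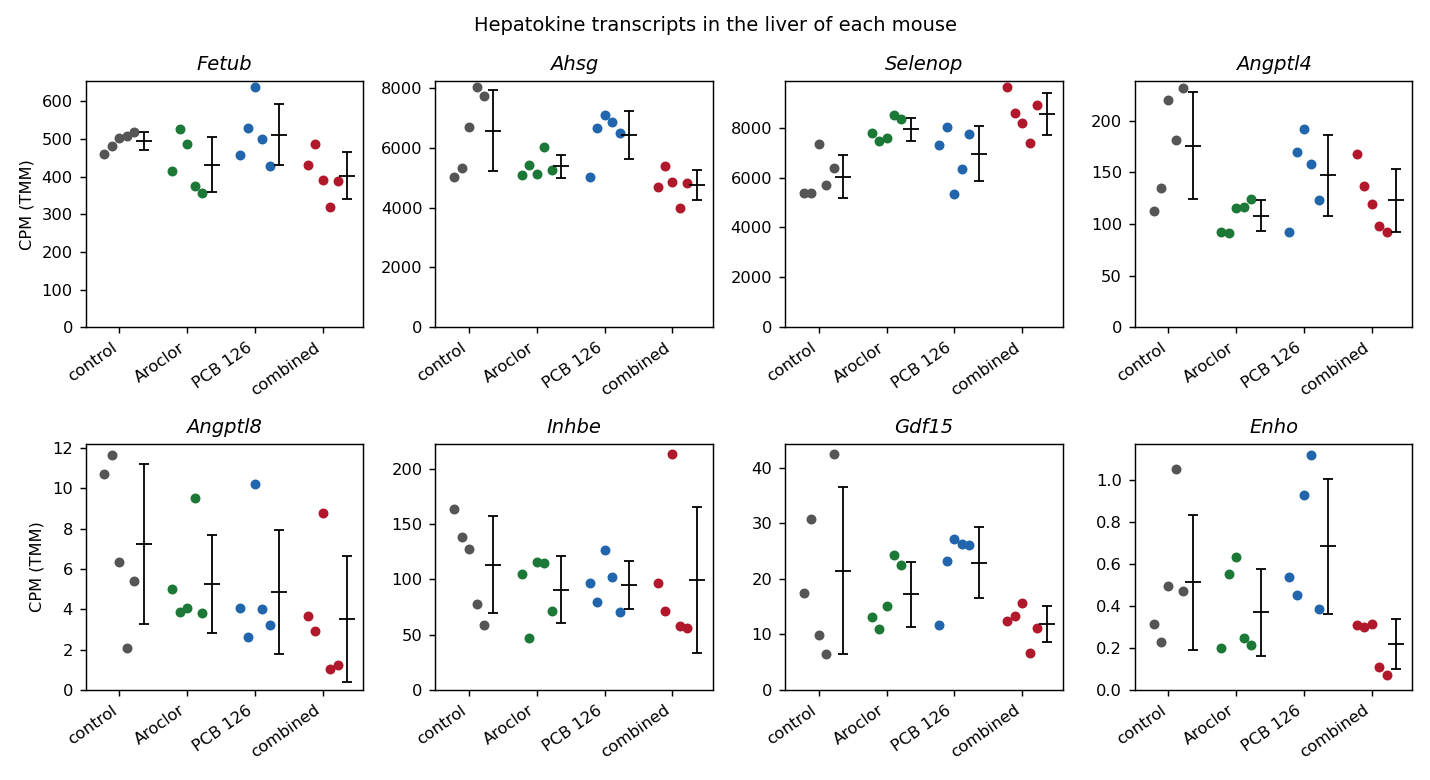
Level of each member in CPM (TMM-normalized, linear axis from 0) for the 5 mice of each group, shown as points, with the group mean and SD as black bars. Selenop in the combined exposure lies above all 5 controls, and Ahsg overlaps the controls, while single high mice stand out for Angptl8 and Inhbe.

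Ahsg and Fetub, the fetuin genes, encode cystatin-related plasma glycoproteins. Fetuin-A binds calcium phosphate and inhibits insulin receptor signalling, and fetuin-B is a protease inhibitor needed for fertilisation. The genes are neighbours on chromosome 16 of GRCm38, both on the plus strand. Ahsg spans chr16:22891277-22899449 and Fetub chr16:22918334-22939778. The gap is 18884 bases, with 0 other genes of the count table in it. The 250 bases before the RefSeq start of Ahsg (GRCm38.p6, chr16:22891765-22892014, plus strand, outside annotated exons) are shown because Ahsg is 1 of the 2 called members, with the single match to the AHR core GCGTG, here on the other strand as CACGC, in capitals.
Ahsg: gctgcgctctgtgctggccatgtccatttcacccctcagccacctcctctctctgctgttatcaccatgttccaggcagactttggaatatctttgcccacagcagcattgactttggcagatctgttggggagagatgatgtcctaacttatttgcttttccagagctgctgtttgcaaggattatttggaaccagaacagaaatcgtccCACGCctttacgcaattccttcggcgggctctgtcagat
This window lies inside the GENCODE M21 span of Ahsg given above, so it is not upstream of the gene as annotated there. The match lies 39 to 35 bases before the RefSeq start. The GCGTG core, on either strand, is found in 28.2% of 32851 RefSeq promoter windows of this length, so a match is common. Fetub has 2 such matches, 212 to 208 and 100 to 96 bases before its second RefSeq start, and none in the window of its first start. The window of the second start also lies inside the GENCODE M21 span of Fetub.

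Ahsg was measured at 5039, 5346, 6714, 8039 and 7748 CPM in HFD control replicates 1 to 5. The combined exposure gave 4700, 5394, 4855, 3990 and 4830 CPM. Each combined mouse except replicate 2 was below all controls, so the groups overlapped in the range of the 2 lowest controls. The mean fell from 6577 ± 1361 (SD, n = 5) to 4754 ± 503 CPM (n = 5). This was a log2 change of -0.47 (SE 0.13, 95% confidence interval -0.74 to -0.20, edgeR adjusted p = 0.00952). With GC correction it was -0.35 (adjusted p = 0.146).

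HFD + Aroclor mice were at 5085, 5430, 5142, 6030 and 5263 CPM of Ahsg. They formed a narrow group within the range of the controls, and the log2 difference of -0.29 did not pass the test (unadjusted p = 0.0385, edgeR adjusted p = 0.271). HFD + PCB 126 mice were at 5046, 6662, 7092, 6867 and 6496 CPM, with a log2 difference of -0.03 (adjusted p = 0.937). Against HFD + PCB 126, the combined exposure was lower by the test as well, at -0.44 (SE 0.13, adjusted p = 0.0305). That call was kept in 6 of 10 fits that left out 1 mouse of these groups (it was lost without PCB 126 replicate 3 or 4 or combined replicate 4 or 5), and it was lost with GC correction (-0.39, adjusted p = 0.146).

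Fetub had the tightest controls of all members (coefficient of variation 4.68%), at 461, 482, 504, 508 and 518 CPM. The combined exposure gave 430, 486, 391, 320 and 389 CPM. Replicate 2 alone lay inside the control range, and the other 4 mice were below every control. The log2 difference of -0.29 (SE 0.13, 95% confidence interval -0.56 to -0.03) missed the threshold in edgeR's test (adjusted p = 0.0813) and was -0.17 with GC correction. DESeq2 placed it just past the threshold (adjusted p = 0.0478), as did edgeR without combined replicate 2 (-0.37, adjusted p = 0.0390). Fetub in HFD + Aroclor was at 416, 527, 488, 375 and 356 CPM, and in HFD + PCB 126 at 457, 530, 638, 501 and 429 CPM. Both groups spread to either side of the controls, with log2 differences of -0.19 (adjusted p = 0.419) and 0.05 (adjusted p = 0.898).

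Selenop encodes selenoprotein P, which holds several selenocysteines and delivers selenium to brain, testis and other organs. The gene lies on chromosome 15 (chr15:3268547-3280508, plus strand), and its span overlaps Ccdc152 on the other strand. Whether reads were counted by strand is not given in the sources used here, so its count is uncertain to that extent. The 250 bases before its first RefSeq start (GRCm38.p6, chr15:3270517-3270766, plus strand, outside annotated exons) are shown because Selenop is the other called member. This window lies inside the GENCODE M21 span of Selenop given above, so it is not upstream of the gene as annotated there. It holds no match to GCGTG, to the E-box CACGTG, to the nuclear receptor sequence AGGTCA or to the C/EBP-ATF element TGATGNAA on either strand. Thus no base is in capitals.
Selenop: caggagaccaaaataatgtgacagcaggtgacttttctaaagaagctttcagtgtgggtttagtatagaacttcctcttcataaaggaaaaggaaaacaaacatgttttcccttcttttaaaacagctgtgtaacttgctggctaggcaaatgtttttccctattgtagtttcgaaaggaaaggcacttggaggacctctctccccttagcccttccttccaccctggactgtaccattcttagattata
The window is 40.8% GC, against 50% for that of Ahsg.

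Selenop was measured at 5366, 5398, 7364, 5688 and 6392 CPM in HFD control. The combined exposure gave 9647, 8593, 8185, 7396 and 8921 CPM, and each of its mice was above the highest control. The mean rose from 6041 ± 847 (SD, n = 5) to 8548 ± 838 CPM (n = 5). The log2 change was 0.50 (SE 0.12, 95% confidence interval 0.26 to 0.75, edgeR adjusted p = 0.00363). With GC correction it was 0.18 (adjusted p = 0.455). Selenop has the lowest GC content of the members, 44.5%.

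Selenop in HFD + Aroclor was at 7773, 7472, 7597, 8514 and 8334 CPM, again with no overlap with the controls. The log2 difference of 0.39 (SE 0.12, 95% confidence interval 0.15 to 0.64, unadjusted p = 0.00305) did not pass edgeR's test after adjustment (adjusted p = 0.195) and was 0.26 with GC correction. In HFD + PCB 126 the values were 7287, 8020, 5345, 6361 and 7759 CPM. They spanned the control range and beyond, with a log2 difference of 0.20 (adjusted p = 0.429).

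Angptl4 and Angptl8 encode angiopoietin-like proteins that inhibit lipoprotein lipase, the enzyme that releases fatty acids from circulating triglycerides. Angptl4 is a target of peroxisome proliferator-activated receptors and is induced by fasting, whereas Angptl8 is induced by feeding and insulin. Angptl4 (chr17:33773750-33781830, minus strand) was at 113, 135, 220, 181 and 232 CPM in HFD control. HFD + Aroclor mice were at 92.2, 91.8, 116, 117 and 125 CPM. All of them were below 4 of the 5 controls, and 2 were below every control. The log2 difference of -0.70 (SE 0.21, 95% confidence interval -1.14 to -0.26) was the largest of any member with Aroclor alone and had an unadjusted p of 0.00332, but it did not pass edgeR's test (adjusted p = 0.195).

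In the combined exposure, Angptl4 was at 168, 137, 119, 98.1 and 92.6 CPM. The difference was -0.52 (SE 0.21), at an adjusted p of 0.0648 in edgeR and 0.0327 in DESeq2, and it was -0.36 with GC correction. It passed edgeR's test in 3 of 10 fits that left out 1 mouse, those without control replicate 1 (-0.64), control replicate 2 (-0.62) or combined replicate 1 (-0.66). HFD + PCB 126 mice, at 92.7, 170, 192, 158 and 124 CPM, spread over much of the control range (-0.26, adjusted p = 0.600).

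Angptl8 (chr9:21835510-21837347, plus strand) lies within the span of Dock6, which is on the other strand. Its count is uncertain for the same reason as that of Selenop. Its RefSeq promoter window (GRCm38.p6, chr9:21835260-21835509, plus strand, outside annotated exons) is shown because it holds an element that is also found in the window of Inhbe, with which it varied. Capitals mark, from left to right, a GCGTG core and a match to TGATGNAA.
Angptl8: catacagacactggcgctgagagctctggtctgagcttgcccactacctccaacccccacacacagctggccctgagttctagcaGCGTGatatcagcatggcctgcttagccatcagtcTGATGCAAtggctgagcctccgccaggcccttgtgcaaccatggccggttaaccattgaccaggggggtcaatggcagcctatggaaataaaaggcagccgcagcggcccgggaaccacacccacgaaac
The matches lie 165 to 161 and 130 to 123 bases before the start. TGATGNAA, on either strand, was found in 3.45% of all windows. Inhbe has a match to the same element on the other strand, TTGCATCA, 181 to 174 bases before its RefSeq start, but all 250 bases of that window lie in annotated exons. The 6 members with a RefSeq window had 8 matches in their 10 windows in all. The others were an AGGTCA 55 to 50 bases before the first start of Gdf15 and a CACGTG 83 to 78 bases before its second start, in a window with 196 of 250 bases in annotated exons. AGGTCA is in 14% and CACGTG in 6.02% of all windows. These are matches of letters, not shown to be sites of binding.

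Angptl8 was at 10.7, 11.6, 6.33, 2.06 and 5.37 CPM in HFD control. HFD + Aroclor mice were at 5.02, 3.88, 4.04, 9.53 and 3.81 CPM, and HFD + PCB 126 mice at 4.06, 2.64, 10.2, 4.02 and 3.24 CPM. In each exposed group 1 mouse stood well above the other 4. The combined exposure gave 3.65, 2.94, 8.75, 1.05 and 1.26 CPM, again with 1 high mouse. The group mean was 7.22 ± 3.95 CPM in HFD control and 3.53 ± 3.12 CPM in the combined exposure (SD, n = 5 each). The log2 difference of -1.04 had a 95% confidence interval of -2.12 to 0.03 and did not pass edgeR's test (adjusted p = 0.131). Without combined replicate 3, the high mouse, it was -1.74 (adjusted p = 0.0120), without control replicate 4 it was -1.27 (adjusted p = 0.0476), and without control replicate 2 it was -0.82 (adjusted p = 0.273). With GC correction it was -0.50 (adjusted p = 0.562). Angptl8 is 60.6% GC.

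Inhbe and Gdf15 belong to the transforming growth factor beta superfamily. Inhbe encodes the beta E subunit of activin, which hepatocytes make and which acts on fat. Gdf15 encodes a stress-induced cytokine whose receptor, GFRAL, is in the hindbrain. Inhbe (chr10:127348857-127354411, minus strand) was at 163, 139, 128, 77.5 and 58.3 CPM in HFD control. HFD + Aroclor mice were at 105, 46.6, 116, 115 and 71.5 CPM. HFD + PCB 126 mice were at 96.9, 79.2, 126, 102 and 70.7 CPM. The combined exposure gave 96.6, 71.3, 213, 57.5 and 56.0 CPM, and replicate 3 was higher than every other mouse of the study.

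The log2 differences of Inhbe from HFD control were -0.32 for Aroclor, -0.25 for PCB 126 and -0.19 for the combined exposure, at adjusted p of 0.630 or more. The 95% confidence intervals were wide, from -1.04 to 0.40, -0.97 to 0.47 and -0.91 to 0.52. With GC correction the last difference was -0.15. It rested on single mice: it was -0.70 without combined replicate 3 (edgeR adjusted p = 0.0688) and -0.023 without HFD control replicate 1 (adjusted p = 0.973). These intervals leave room for sizeable changes of Inhbe in either direction.

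Gdf15 (chr8:70629393-70632456, minus strand) was at 17.3, 30.8, 9.92, 6.49 and 42.5 CPM in HFD control, a spread that covered all values of the other groups. The combined exposure gave 12.3, 13.2, 15.6, 6.73 and 11.2 CPM. These mice were close together and near the low end of the controls. The log2 difference was -0.86 (SE 0.39, 95% confidence interval -1.66 to -0.06, edgeR adjusted p = 0.0936). Without HFD control replicate 5, the highest of all 20 mice, it was -0.46 (adjusted p = 0.364). Without control replicate 4, the lowest of the controls, it was -1.09 and passed the test (adjusted p = 0.0173), as it did without control replicate 3 (-1.04, adjusted p = 0.0463). With GC correction it was -0.27.

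HFD + Aroclor mice were at 13.1, 10.9, 15.0, 24.3 and 22.5 CPM of Gdf15 (-0.32, adjusted p = 0.667). HFD + PCB 126 mice were at 11.7, 23.1, 27.1, 26.2 and 26.1 CPM (0.09, adjusted p = 0.937). Against HFD + PCB 126, the combined exposure differed by -0.95 (SE 0.39), with an adjusted p of 0.0863 in edgeR and 0.0356 in DESeq2. With GC correction this difference was -0.51 (adjusted p = 0.441).

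Enho (chr4:41638144-41640324, minus strand) encodes adropin, a peptide linked to fuel use, and overlaps Dnaic1 on the other strand. It was near the limit of detection, at 0.228 to 1.05 CPM in HFD control and 0.200 to 0.636 CPM in HFD + Aroclor. HFD + PCB 126 mice were at 0.387 to 1.12 CPM and combined mice at 0.0699 to 0.315 CPM. The combined mice, at 2 to 9 counts, were all below all HFD + PCB 126 mice, at 11 to 28 counts. The share of all genes without overlap was not computed for this comparison. The difference between these groups passed the test (-1.63, SE 0.52, edgeR adjusted p = 0.0363). It was kept in 6 of 10 fits without 1 mouse (lost without the same 4 mice as the call of Ahsg, at -1.50 to -1.39) and lost with GC correction (-1.18, adjusted p = 0.182). Enho has the highest GC content of the members, 65.6%. Against HFD control the difference was -1.20 (adjusted p = 0.0809). It was -0.59 with GC correction (adjusted p = 0.510) and -0.76 without HFD control replicate 4 (adjusted p = 0.245).

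**Figure D2:**
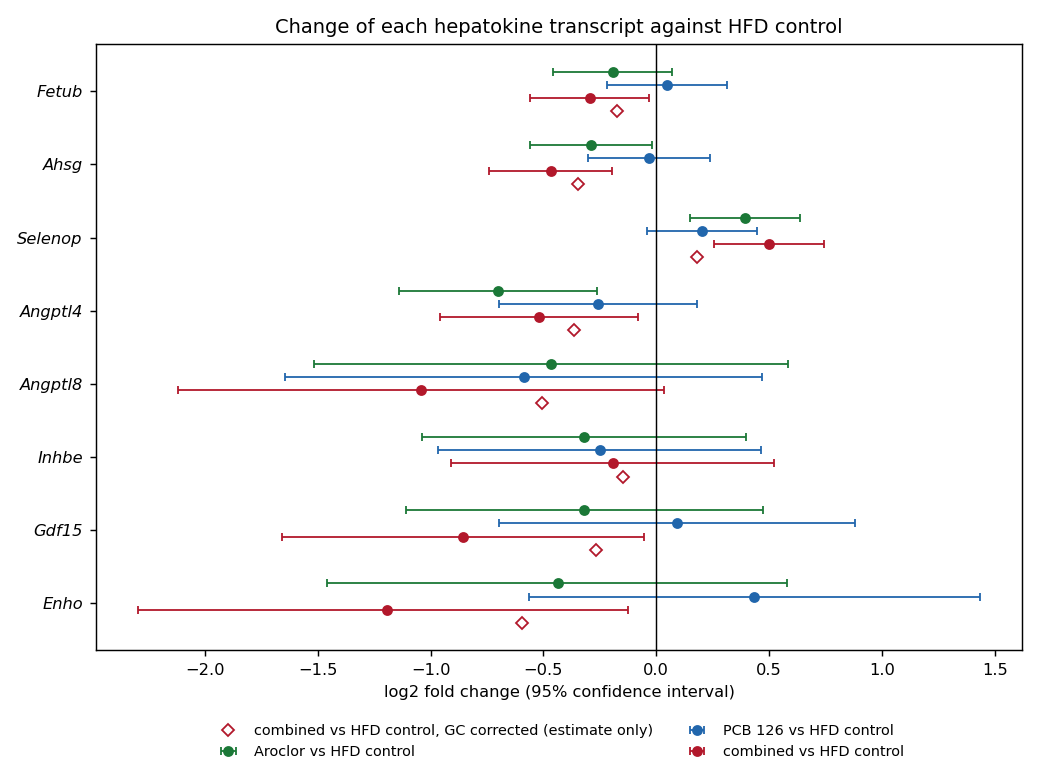
Log2 fold change of each member against HFD control for Aroclor (green), PCB 126 (blue) and the combined exposure (red), as the edgeR estimate with its 95% confidence interval; open diamonds give the combined estimate after GC correction. The red estimates of 7 members lie left of 0 and that of Selenop to the right, and each diamond lies nearer to 0 than the red point of the same gene.

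Counted over the members, 0 of 8 passed edgeR's test with Aroclor, where 0% of all tested genes did. At an unadjusted p under 0.05 there were 3 of 8 members (Ahsg, Selenop and Angptl4) and 2677 of 15522 genes. DESeq2 called 135 genes (1.20% of those it gave an adjusted p), none of them a member. With PCB 126 alone, 0 of 8 members passed, against 0.116% of all genes. An unadjusted p under 0.05 was found for 0 members there and for 2280 of 15522 genes. DESeq2 called 320 genes there (2.53%) and again 0 members. With the combined exposure, 2 of 8 members passed, 1 higher and 1 lower, where 32.8% of all genes were called (15.8% higher and 17.0% lower). DESeq2 called 5 members there, with Fetub, Angptl4 and Gdf15 added, and 5620 genes, which is 42.5% of those it gave an adjusted p. With GC correction, 0 members and 4.30% of all genes were called.

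The median log2 difference of the 8 members was -0.32 for Aroclor, 0.01 for PCB 126 and -0.49 for the combined exposure, and 7, 4 and 7 members were below 0. Over all tested genes the medians were -0.01, -0.02 and 0.00. The 3 comparisons share the HFD control mice. The mice of exposure and control did not overlap for 1 of 8 members with Aroclor (Selenop), 0 with PCB 126 and 1 with the combined exposure (Selenop). Over all genes this held for 2.94%, 2.14% and 18.8%.

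Against HFD + PCB 126, 2 of 8 members passed in the combined exposure (Ahsg and Enho, both lower), where 16.7% of all genes did. An unadjusted p under 0.05 was found for 5 of 8 members and for 5522 of 15522 genes. DESeq2 called 5 members, with Fetub, Selenop and Gdf15 added, and 29.2% of the genes it gave an adjusted p. With GC correction, 0 members and 0 genes were called. Against HFD + Aroclor, 0 of 8 passed, where 0.412% of all genes did. For the interaction, which compares the combined change with the sum of the single changes on the log2 scale, 0 of 8 members passed, against 0% of all genes. Neither of the last 2 comparisons had a member with an unadjusted p under 0.05, where 3639 and 1846 of 15522 genes had one. DESeq2 called 0 members in these 2 comparisons, beside 12.6% and 0.00655% of the genes it gave an adjusted p. With GC correction 0 members and 0.0193% and 0% of all genes were called.

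The change of each member with the combined exposure had the direction of the median gene of like GC content, but its size varied at like GC. Median GC over the tested genes was 50.2%. The median gene of 44% to 46% GC was 0.30 higher in the combined exposure on the log2 scale, and Selenop, at 44.5%, was 0.50 higher. Genes of 52% to 54% GC had a median of -0.21, beside -0.29 for Fetub, -0.47 for Ahsg and -0.52 for Angptl4. Genes of 60% to 62% GC had a median of -0.78, beside -1.04 for Angptl8 and -0.86 for Gdf15. For genes of 50% to 52% GC it was -0.05, beside -0.19 for Inhbe, and for 64% to 66% it was -0.90, beside -1.20 for Enho. Inhbe, Fetub, Ahsg and Angptl4, at 51.6% to 53.2% GC, thus ranged from -0.19 to -0.52. What sets the GC slopes of the libraries was not tested.

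**Figure D3:**
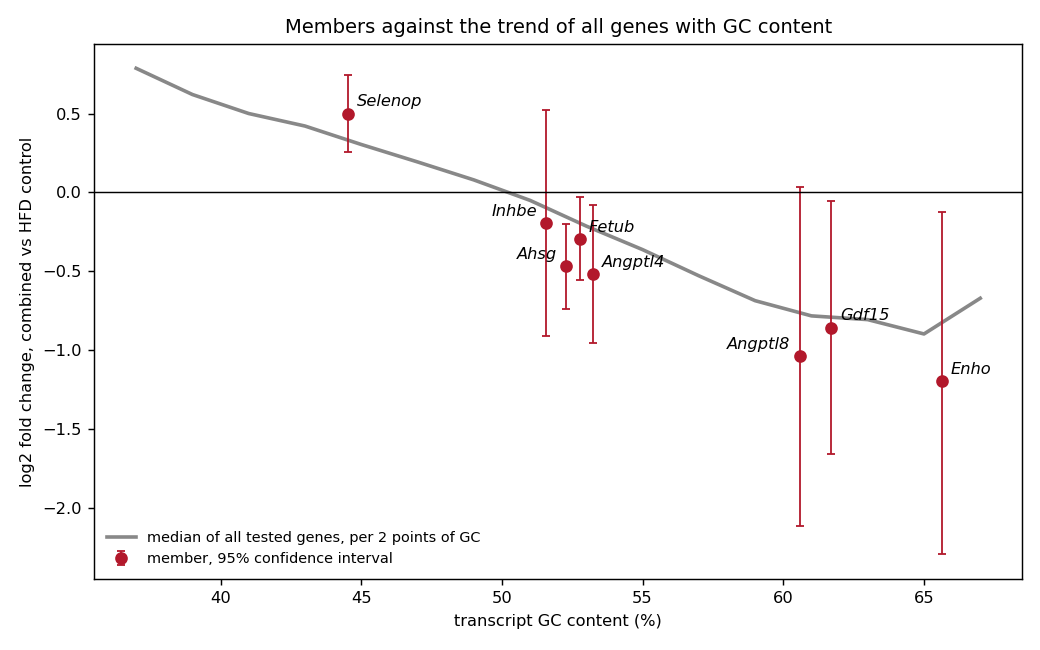
Log2 fold change of each member with the combined exposure (red points, 95% confidence intervals) against the GC content of its transcripts in percent; the grey line joins the median log2 fold change of all tested genes in steps of 2 points of GC. Fetub and Ahsg share 52.5% GC and are drawn slightly apart. The interval of each member except Ahsg spans the grey line, that of Ahsg ends just below it, and the members follow its fall from left to right.

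The members fell into stable and variable genes. The SD of log2 CPM within groups was 0.18 for Selenop and 0.20 for Ahsg and Fetub, below the median of 0.24 over genes at 1 CPM or more. It was 0.37 for Angptl4, 0.60 for Inhbe, 0.68 for Enho, 0.70 for Gdf15 and 0.90 for Angptl8. The spread of the last 4 was larger than that of at least 96.3% of genes at 1 CPM or more. Enho itself is below 1 CPM in each group mean, so its spread includes a large counting error.

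To see which members moved together from mouse to mouse, each was centred on its group mean and all 28 pairs were correlated over the 20 mice, with 100000 permutations of the mice within groups. Angptl8 and Inhbe had a Pearson r of 0.79 (permutation p = 0.00019, Benjamini-Hochberg adjusted 0.00532) and a Spearman rho of 0.78 (adjusted 0.00532). Without the 2 mice farthest from the median of Angptl8, r was 0.72, and with GC-corrected levels it was 0.79. It was above 0 in each of the 4 groups. HFD control replicates 1 and 2 were the highest of their group for both genes, as were PCB 126 replicate 3 and combined replicate 3. Aroclor replicate 4 was the highest of its group for Angptl8 and close to the highest for Inhbe. Control replicates 1 and 2 (0.42 and 0.30), PCB 126 replicate 3 (0.35) and combined replicate 3 (-0.12) also had the highest GC slopes of their groups. Combined replicates 4 and 5, low for both genes, had the lowest of theirs (-0.54 and -0.44). In HFD + Aroclor the highest slope was that of replicate 3 (0.11), and replicate 4 was at 0.0062. The part of the GC slope in this correlation was not tested.

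Ahsg and Angptl4 had an r of 0.74 (permutation p adjusted to 0.0444) and a rho of 0.63 (adjusted 0.116), and r was 0.57 without the 2 farthest mice. Fetub and Enho had an r of 0.64 (adjusted 0.0444) and a rho of 0.66 (adjusted 0.0624). Angptl8 with Inhbe was the single pair under 0.05 by both measures. Neighbouring Ahsg and Fetub had an r of 0.42 (adjusted 0.161).

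**Figure D4:**
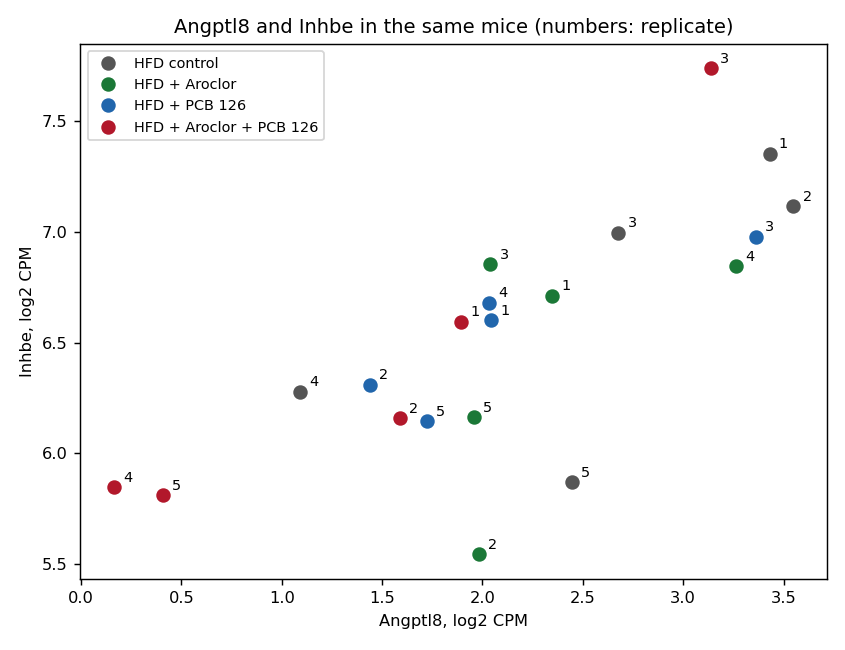
Log2 CPM of Inhbe (vertical) against log2 CPM of Angptl8 (horizontal) in each of the 20 mice, coloured by group and numbered by replicate. Combined replicate 3 lies at the top, control replicates 1 and 2 lie at the upper right, and combined replicates 4 and 5 lie at the lower left.

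**Figure D5:**
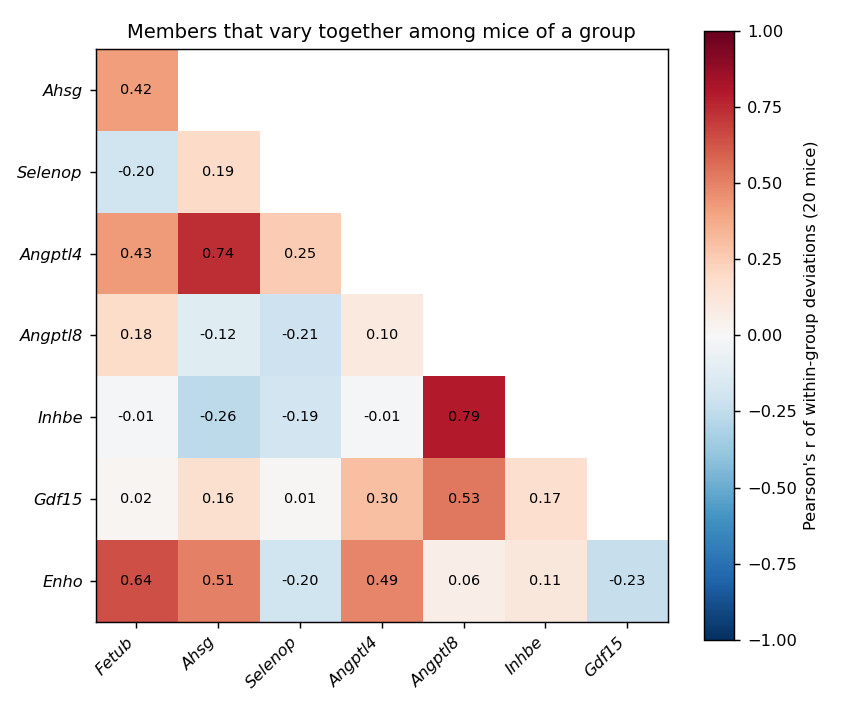
Pearson's r (colour from -1 in blue to 1 in red, and printed) for each of the 28 pairs of members, over the deviations of 20 mice from their group means. The darkest cells are Angptl8 with Inhbe (0.79), Ahsg with Angptl4 (0.74) and Fetub with Enho (0.64).

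By the smallest root-mean-square difference of centred log2 CPM over the 20 libraries, the genes most like Selenop were Twsg1 and Cmpk1 (0.0706 each). Those most like Ahsg were Cct5 (0.116) and Cct7 (0.117), and those most like Fetub were Emg1 (0.0893) and Eef1g (0.104). Angptl4 was nearest to D230025D16Rik and Bysl (0.243 each), Inhbe to Frs3 (0.310) and Cyren (0.335), and Gdf15 to Wdr91 (0.401) and Adam11 (0.417). Angptl8 was nearest to Scarf1 (0.506) and Cdc42ep1 (0.536), and Enho to Gnat1 (0.447) and Serpina12 (0.475). The distance was 0.283 of the member's own root-mean-square deviation for Selenop and up to 0.608 for the others, so the likeness was loose for the variable members.

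Genes of the same pathways were counted from 6 lists. In each list, 0 genes passed edgeR's test with Aroclor or with PCB 126 alone, and the counts that follow are for the combined exposure. The share of all genes called was 32.8%, and GC correction, added for the lists after the data were seen, removed most calls.

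Of 23 other hepatokines, 8 passed (3 higher, 5 lower, median log2 difference -0.04). Igfbp2, an insulin-like growth factor binding protein, fell by 1.48 (adjusted p = 0.00413), and Manf, a factor secreted under endoplasmic reticulum stress, fell by 0.98 (adjusted p = 0.0271). Hgf, hepatocyte growth factor, rose by 0.88 (adjusted p = 0.0274). With GC correction these were -0.95, -1.06 and 0.39. After GC correction, 0 of these 8 passed and 1 other gene did, Tsku (0.73, adjusted p = 0.0451), named here after its value was seen.

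Of 15 genes of the ANGPTL and lipoprotein lipase axis, 7 passed (2 higher, 5 lower, median -0.29). The fatty acid transporter Cd36 rose by 1.13 (adjusted p = 0.00104). Apoc3, which restrains lipoprotein lipase, fell by 0.81 (adjusted p = 0.00208). Vldlr, a lipoprotein receptor, was at 0.80 (adjusted p = 0.0580). With GC correction, 0 of the 15 passed, and these 3 were at 0.52, -0.46 and 0.59.

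Of 17 tested genes of the activin and GDF axis, 3 passed (2 higher, 1 lower, median -0.04), and 0 did after GC correction. Inhbc, another activin subunit gene of the liver, fell by 0.54 (adjusted p = 0.0106), and the receptor gene Acvr2a rose by 0.69 (adjusted p = 0.00882). Inhbb was at -0.50 (adjusted p = 0.257). With GC correction these were -0.37, 0.20 and 0.066. The list also holds Gfral, the GDF15 receptor, which did not pass the filter on counts.

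Of 24 genes of selenoprotein synthesis and selenoproteins, 10 passed (3 higher, 7 lower, median -0.26), and 0 did after GC correction. Selenot rose by 0.63 (adjusted p = 0.00366). Gpx1, a glutathione peroxidase sensitive to selenium supply, fell by 0.68 (adjusted p = 0.0122), and Lrp1, a receptor of lipoproteins and other ligands, fell by 0.73 (adjusted p = 0.00802). With GC correction these were 0.12, -0.28 and -0.30.

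Of 29 transcription factors known to act on members, 17 passed (7 higher, 10 lower, median -0.25), and 4 did after GC correction. Ddit3, which encodes the stress factor CHOP, fell by 1.35 (adjusted p = 0.00228; -1.29 and 0.0174 with GC correction). Ppargc1a, a coactivator of fasting metabolism, rose by 0.97 (adjusted p = 0.000505; 0.68 and 0.0142 with GC correction). Nr1h2, a liver X receptor gene, fell by 1.12 (adjusted p = 0.00134; -0.54 and 0.0597 with GC correction). Arnt, the partner of the aryl hydrocarbon receptor, was also kept and was higher, and is named here after its values were seen.

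Of 20 feeding and fasting response genes, 4 passed (1 higher, 3 lower, median -0.04), and Plin2 alone did after GC correction. Fasn, fatty acid synthase, fell by 0.82 (adjusted p = 0.00761). G6pc, glucose-6-phosphatase, rose by 0.82 (adjusted p = 0.0497). Thrsp, a lipogenic gene induced by feeding, was at 0.96 (adjusted p = 0.103). With GC correction these were -0.31, 0.62 and 1.09.

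Markers of other cell types were read beside the members with the combined exposure, where 32.8% of all genes passed. They are given without GC correction. Of 6 stellate cell and fibroblast markers, 3 were higher and 1 lower by the test. Their summed level was 137 to 291 CPM in HFD control and 301 to 350 in the combined exposure. These did not overlap, which also held for 18.8% of all single genes. The sum was 256 to 368 CPM in HFD + Aroclor and 177 to 346 in HFD + PCB 126. Dcn alone was at 79.5 to 225 CPM over the libraries. Of 7 hepatocyte markers tested, 1 was higher and 3 were lower, with sums of 84580 to 94890 and 80610 to 110000 CPM. Of 5 adipocyte markers, 0 passed, with sums of 113 to 275 CPM in HFD control and 79.4 to 154 in the combined exposure, and Angptl4 and Angptl8 are also made by fat cells. Adipoq, the defining marker, ranged from 0 to 11.4 CPM over the libraries. Of 7 Kupffer cell and macrophage markers 1 was higher, and of 5 endothelial markers 1 was lower. Among tested markers of bile duct, red blood, T and B cells, neutrophils and exocrine pancreas, 0 passed, and the pancreatic amylase gene Amy2a5 had 0 counts in each library. The part of these cells in the members' values was not tested.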

How the data were processed

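RNA-seq of liver from 20 mice was analysed. The authors made stranded libraries from polyadenylated RNA and ran the sequencer 2 times. STAR 2.6 on GRCm38.p6 and HTSeq 0.10.0 then gave reads per Ensembl gene, after a check with FastQC 0.10.1 (versions from the submitters' processing notes). The deposited values are raw counts, not normalized. Neither the annotation release nor the strand option of HTSeq is given in the sources used here. Columns were assigned to mice through the sample titles. In the title of PCB 126 replicate 2 the library name carries the number 3, and the replicate number was followed.

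A gene was tested if its counts summed to 10 or more over all libraries (15522 of 21780 genes). Counts were scaled by TMM and modelled in edgeR 4.0.16 (R 4.3.3) with 1 mean per group, which left 16 residual degrees of freedom. The two-sided quasi-likelihood test was used, with Benjamini-Hochberg adjustment over all tested genes and a threshold of 0.05. CPM (counts per library total scaled by TMM) and FPKM (with the union of exons in GENCODE M21) were computed from the counts. Standard errors include counting error and the spread between mice. GC correction fitted a spline (6 degrees of freedom) of log2 CPM deviations on transcript GC content in every library, over 15516 genes, and used it as an offset. The tests were tested on simulated data with known changes.

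The members, the 6 gene lists, the marker lists and the tests were chosen with earlier results of these data known. The genes named are the members, Cyp1a1, Cyp1a2 and Cyp2b10, the 3 genes of each list with the largest change in the combined exposure at 1 CPM or more, any list gene called in a single exposure, and the 2 genes most like each member. Alternatives were RLE and upper-quartile normalization, other filters on counts, DESeq2 1.42.0, which the authors used for their own comparison, a fit of only the groups compared, the replicate number as a block, corrections for GC content and length, and leaving out each mouse. Promoter windows are the 250 bases before the RefSeq start. Some of them, such as those of Ahsg and Selenop, lie inside the GENCODE M21 span of the gene. Angptl4 and Enho have no entry in the promoter table used. The values of 1 listed gene are not reported here.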

Additional observations from a re-analysis of the deposited data

Results flagged for a closer look

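In each of the 32 sets of 5 mice (8 members in 4 groups), the highest and the lowest mouse were compared with the rest by Dixon's ratio of the gap to the whole range. In 4 sets a mouse stood apart. The ratio was taken on CPM, not on log2 CPM. Chance alone marks about 1 in 20 sets only where CPM is normally distributed among mice, which was not tested. Angptl8 in HFD + Aroclor replicate 4 was at 9.53 CPM, against 3.81 to 5.02 in the other mice of the group. Angptl8 in HFD + PCB 126 replicate 3 was at 10.2 CPM, against 2.64 to 4.06 in the others. Inhbe in HFD + Aroclor + PCB 126 replicate 3 was at 213 CPM, against 56.0 to 96.6 in the others. These 3 mice were the highest of their group for Angptl8, which varied together with Inhbe. Gdf15 in HFD + PCB 126 replicate 1 was at 11.7 CPM, below 23.1 to 27.1 in the others.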

How the results depend on the processing

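Of 379 values (32 log2 differences of single members under the alternatives other than leaving out a mouse), 332 kept their direction and side of the threshold, 16 lost the call, 13 gained one and 18 changed sign. No called member changed sign. The cause was not tested.

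The members called with the combined exposure went from 2 to 5 with DESeq2 and to 0 with GC correction, GC and length correction, GC correction with the replicate block and the GC slope as a covariate. Against PCB 126 they went from 2 to 5 and to 0 under the same settings. DESeq2 called 5620 genes (42.5% of those with an adjusted p) and 3697 genes (29.2%) in these comparisons. With the GC slope Ahsg was at -0.45 (adjusted p = 0.548), and at -0.42 against PCB 126 (0.985), close to its -0.47 and -0.44 without it, so there the p moved more than the difference. Selenop was at 0.20 (0.804). Genes called with the combined exposure fell from 5089 to 668, 658, 933 and 335 under these 4 GC settings, and against PCB 126 from 2589 to 0, 0, 153 and 0. Against Aroclor the 64 genes called became 3, 3, 40 and 0 under the GC settings, 107 with RLE, 251 with upper quartile, 13 with no filter, 292 with filterByExpr, 636 with the FPKM filter, 1343 with DESeq2, 0 with only the groups compared and 475 with the block.

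For Aroclor, 0 genes called became 135 with DESeq2, 26 with the block, 25 with GC and block and 447 with the GC slope. For PCB 126, 18 became 9 with upper quartile, 68 with filterByExpr, 47 with the FPKM filter, 320 with DESeq2, 4 with only the groups compared, 101 with the block, 47 with GC, 60 with GC and length, 145 with GC and block and 676 with the GC slope. For the interaction, 0 became 1 with DESeq2, 38 with the block and 44 with GC and block. With GC correction the lists went from 8, 7, 3, 10, 17 and 4 genes called to 1, 0, 0, 0, 4 and 1, in the order of the report.

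Signs changed as follows. With the GC slope as a covariate, Angptl8 was at 0.83, 0.080 and 1.504 for Aroclor, PCB 126 and the combined exposure, and at 1.43 against PCB 126. Inhbe was at 0.38, 0.17 and 1.28 against HFD control, Gdf15 at 0.14 for Aroclor and 0.21 combined, Fetub at 0.0055 combined, and Angptl4 at 0.024 against PCB 126. Ahsg for PCB 126 was at 0.0429 with GC correction, 0.0436 with length as well and 0.048 with GC and block. Gdf15 for Aroclor was at 0.081 with GC and block, Angptl8 against PCB 126 at 0.060 with GC and length, and Inhbe against PCB 126 at -0.070 with the block and -0.085 with GC and block.

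Leaving out 1 mouse at a time gave 0 to 2 genes called for Aroclor, 4 to 127 for PCB 126, 3894 to 5679 combined, 4 to 3416 combined against PCB 126, 0 to 1036 against Aroclor and 0 for the interaction. Without PCB 126 replicate 3, 127 genes were called for PCB 126, and 4 genes and 0 members in the combined exposure against PCB 126. Without PCB 126 replicate 2, 4 genes were called for PCB 126. Members called were 2 to 4 combined and 0 to 4 against PCB 126. With the combined exposure, Ahsg (-0.55 to -0.39) and Selenop (0.44 to 0.58) were called in 10 of 10 such fits. Ranges that crossed 0 were Gdf15 -0.55 to 0.083 and Enho -0.72 to 0.00088 for Aroclor, Fetub -0.045 to 0.10, Ahsg -0.11 to 0.050 and Gdf15 -0.14 to 0.49 for PCB 126, and Angptl8 -1.16 to 0.020 and Inhbe -0.46 to 0.21 against PCB 126.

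Mice that share a replicate number are different animals. Of 30 same-number pairs of libraries, 13 had a correlation of deviations over 0.1 (-0.26 to 0.74, median 0.05). The median for different numbers was -0.0124, and 10 of 20 libraries matched best a library of their own number. Whether libraries of the same number share a step of handling is not given, and it was not tested. With the number as a replicate block, 5292 genes and 3 members were called for the combined exposure, with Fetub at -0.31 (edgeR adjusted p = 0.0469).

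DESeq2 gave no adjusted p for Enho with Aroclor, and the FPKM filter removed Enho. The counting error of Enho, at 2 to 28 counts, and the spread of Angptl8, Inhbe and Gdf15 among 5 mice limit what can be seen for these genes.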
